A study of Homo sapiens with 5 samples.

Results

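A list of 13242 broad H3K9me3 peaks that carries no genotype in its name was set beside the 23245 peaks of the list named EV, both on chromosomes 1 to 22. These 36487 peaks were chosen by list and chromosome alone, out of 55034 peaks in the 3 lists of the series on all sequences. The list without genotype matches no label with certainty. The library labelled WT is the H3K9me3 sample to which no list was matched, but neither the name of the list nor its peak names tie it to that sample, so it is called the list without genotype throughout. There is 1 list a side, so every difference below is a description of these lists, without a replicate check and without a test.

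The study profiled trimethylation of lysine 9 of histone H3 (H3K9me3) by chromatin immunoprecipitation and sequencing in HEK293T, an established human embryonic kidney cell line. Its 5 samples are H3K9me3 libraries of cells with the genotypes WT, EV and KD, pulled down with the antibody Abcam ab8898, and no-antibody inputs of WT and EV, with 1 library each, all from formaldehyde-fixed, sonicated chromatin. EV is read here as cells with an empty vector and WT as unmodified cells; KD stands for knockdown of KCNQ1OT1, which the design spells KCNQ1OT1_K without saying what the suffix means. The sources used here give neither the vector, its dose and time, nor whether a line is 1 clone or a pool, and no RNA was measured, so neither the cell identity nor the knockdown could be checked.

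H3K9me3 is written by the SUV39H and SETDB1 enzymes and read by heterochromatin protein 1, and it marks silent chromatin. It is dense on the satellite repeats at and around centromeres, and it also covers silenced transposons, clusters of KRAB zinc finger genes and some germline and developmental genes. In zinc finger genes it lies mostly over the 3′ part of the gene, where the repeated exons that encode the fingers are.

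Start sites give a view of single regulatory sequences under the peaks. The 250 bases before the start are shown for 4 genes, picked after their values were seen, because they span the cases found: a peak in the list without genotype only, in both lists, or in EV only. The sequences are RefSeq's on GRCh38.p14, read 5′ to 3′ in the direction of the gene, with every CG (CpG, the dinucleotide that DNA methylation acts on) in capitals. DPPA5, a gene of pluripotent and germ cells, lies on the minus strand and its sequence is chr6:73354277-73354526. FANK1, a gene expressed mainly in testis, lies on the plus strand (chr10:125896314-125896563). ZNF544, a zinc finger gene, is also on the plus strand (chr19:58228664-58228913), as is HHEX, a homeobox transcription factor gene (chr10:92689705-92689954).
DPPA5: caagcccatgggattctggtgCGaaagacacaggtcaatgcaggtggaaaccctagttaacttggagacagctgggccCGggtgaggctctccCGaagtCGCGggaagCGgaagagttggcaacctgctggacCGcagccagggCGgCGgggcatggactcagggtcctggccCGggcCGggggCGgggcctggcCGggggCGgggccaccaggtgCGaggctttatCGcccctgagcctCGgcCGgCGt
FANK1: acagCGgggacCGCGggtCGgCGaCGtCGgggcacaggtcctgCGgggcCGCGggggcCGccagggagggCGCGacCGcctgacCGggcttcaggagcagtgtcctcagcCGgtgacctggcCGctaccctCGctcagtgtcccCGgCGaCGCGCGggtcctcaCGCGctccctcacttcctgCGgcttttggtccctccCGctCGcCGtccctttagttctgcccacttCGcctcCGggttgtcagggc
ZNF544: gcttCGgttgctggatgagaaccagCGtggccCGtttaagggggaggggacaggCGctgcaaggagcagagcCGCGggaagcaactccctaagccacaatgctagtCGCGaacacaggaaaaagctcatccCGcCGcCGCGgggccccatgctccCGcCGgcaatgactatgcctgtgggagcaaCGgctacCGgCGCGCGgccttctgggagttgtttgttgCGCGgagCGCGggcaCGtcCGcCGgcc
HHEX: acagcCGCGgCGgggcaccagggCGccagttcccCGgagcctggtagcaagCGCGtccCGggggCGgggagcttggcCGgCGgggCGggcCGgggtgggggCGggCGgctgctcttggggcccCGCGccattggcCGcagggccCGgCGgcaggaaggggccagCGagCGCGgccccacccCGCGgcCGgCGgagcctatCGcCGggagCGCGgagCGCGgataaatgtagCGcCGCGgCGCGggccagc
The list without genotype covered all 250 bases at DPPA5, FANK1 and ZNF544 and none at HHEX. EV covered all 250 at ZNF544 and HHEX and none at DPPA5 and FANK1. The sequences hold 19 CG at DPPA5, 31 at FANK1, 26 at ZNF544 and 38 at HHEX. Counted over the full 300-base windows, which add the 50 bases after the start, there are 20, 37, 31 and 44. Of 21156 start-site windows of protein-coding genes, 53.4% hold at least as many CG as that of DPPA5, 14.8% as that of FANK1, 27.1% as that of ZNF544 and 5.52% as that of HHEX.

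The list without genotype was the smaller one. It had 0.570 times as many peaks as EV (95% interval 0.558 to 0.582) and covered 28.3 Mb against 48.7 Mb, a ratio of 0.581. These lengths are 0.985% and 1.70% of the chromosomes. Intervals here and below are exact Clopper-Pearson intervals, which cover the counting error over peaks alone. The sources used here do not give the reads behind either list, and fewer peaks pass a threshold when a library is less deep, so depth and the mark cannot be told apart in these ratios.

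Widths were alike in the middle and differed more at the edges. The median peak was 1160 bp wide in the list without genotype and 1117 bp in EV, with quartiles of 615 and 2247.5 bp against 673 and 1899 bp. The narrowest peaks measured 283 and 349 bp and the widest 144601 and 210153 bp. Peaks of at least 5 kb, the domain-like ones, were 1109 of the list without genotype (8.37%) and 1786 of EV (7.68%), and they held 40.6% and 41.8% of the covered bases. The peak caller's −log10 p, which measures the evidence for a peak within its own library, had a median of 4.26 in the list without genotype and 4.69 in EV. It reached at least 30 at 54 and 739 peaks.

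The overlapped counts were closer than the overlapped shares, because the lists differ in size. Of the peaks in the list without genotype, 7002 (52.9%, interval 52.0 to 53.7) met an EV peak by at least 1 bp. In turn, 5904 EV peaks (25.4%, interval 24.84 to 25.96) met a peak of the list without genotype. With EV cut to its 13242 strongest peaks, so that both lists were of equal size, the shares were 44.5% and 35.8%. The lists shared 18.2 Mb, which is 64.4% of the bases of the list without genotype, 37.4% of those of EV and 31.0% of their union. Most matches were simple, since 93.6% of the overlapped peaks without genotype had 1 EV partner and 82.0% of the overlapped EV peaks had 1. A peak of the list without genotype lay wholly inside its EV partner in 40.8% of matches, and the reverse held for 18%.

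Wide peaks mostly met a peak of the other list by at least 1 bp, and narrow peaks mostly did not. Of the peaks at least 5 kb wide, 99.2% of those without genotype and 91.6% of those in EV were overlapped. Below 1 kb the shares were 28.9% and 7.51%. The 6240 peaks of the list without genotype that met no EV peak had a median width of 760.5 bp and a median −log10 p of 3.83, against 1899 bp and 5.05 for the overlapped ones. They lay a median of 17.0 kb from the nearest EV peak, and 42.2% were within 10 kb of one. Only 179 of them (2.87%) met a peak of the KD list, compared with 68.1% of the overlapped ones. The 17341 EV peaks without a partner had a median width of 922 bp and lay a median of 164 kb from the nearest peak of the other list.

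Overlap varied with the evidence for a peak and with where it lay. The autosomes were divided into 26 stretches of at least 2 Mb that hold no gene of any kind, which take in centromeric satellite sequence and assembly gaps (175 Mb, 6.09% of the length), and the remainder. In these stretches 49.4% of the peaks without genotype with a −log10 p below 3.5 met an EV peak, and 93.9% did at 7 to 10. Elsewhere the shares were 14.5% and 66.7%. EV peaks in the gene-free stretches were likewise overlapped in 35.4% of cases below 3.5 and in 86.4% at 7 to 10. Elsewhere the EV shares were 4.12% and 9.40% in those bins, 19.1% at 20 to 30 and 67.2% at 50 or more.

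**Figure D1:**
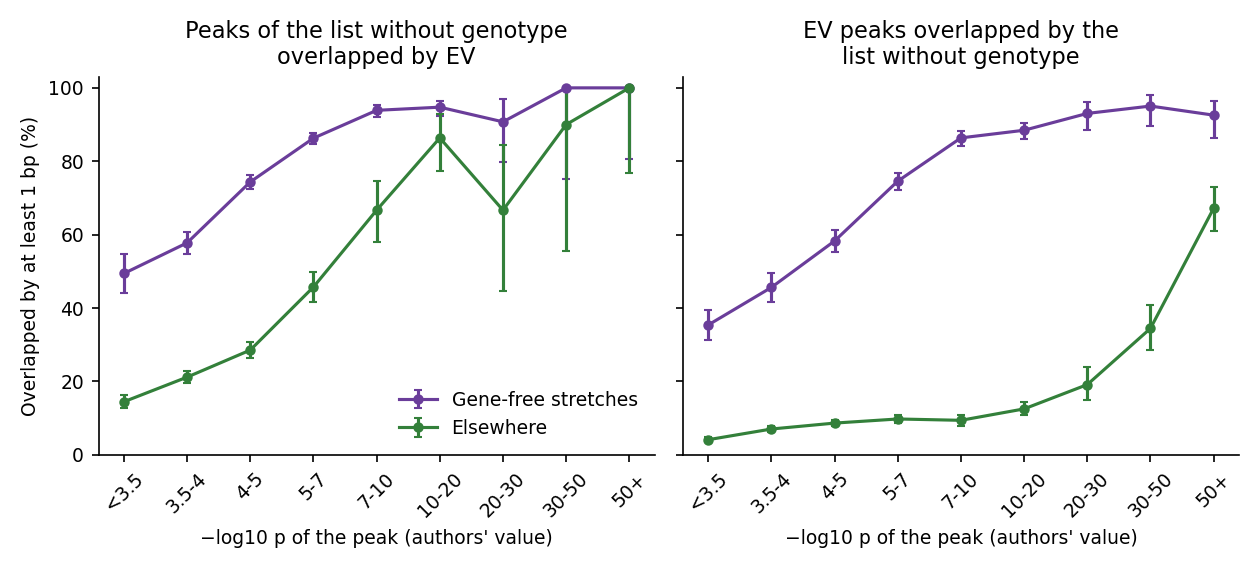
Percent of peaks overlapped by at least 1 bp (y axis) by the authors' −log10 p of the peak (x axis, binned), for peaks of the list without genotype (left) and EV peaks (right). Points are shares of peaks, bars are exact 95% intervals, and purple and green stand for gene-free stretches and the remaining sequence; EV peaks outside gene-free stretches stay at 9.40% at a −log10 p of 7 to 10, where those inside reach 86.4%.

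The shortfall in peak number lay outside the gene-free stretches, while covered length was lower on both sides. Inside the stretches the list without genotype had more peaks than EV, 6834 against 6053, a ratio of 1.13 (interval 1.09 to 1.17), although they covered 21.3 Mb against 28.1 Mb, a ratio of 0.759. Outside them it had 6408 peaks against 17192, a ratio of 0.373 (interval 0.362 to 0.384), and 7.0 Mb against 20.7 Mb, a ratio of 0.339. The gene-free stretches thus held 75.3% of the bases of the list without genotype and 57.6% of those of EV. Overlap followed the same division, with 78.1% of the peaks without genotype and 71.0% of the EV peaks overlapped inside the stretches, against 26% and 9.35% outside. Reads from satellite repeats map to many near-identical places, and the sources used here do not say how such reads were handled.

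In windows of 1 Mb the covered lengths of the lists had a Pearson coefficient of 0.951 in gene-free sequence (174 windows, of which 102 were empty in both lists) and 0.786 elsewhere (2712 windows). The rank coefficient, Spearman's, was 0.993 and 0.242, the first with the empty windows tied. These windows share their libraries and mappability, and the coefficients are given as a description. Outside gene-free sequence 749 windows had EV peaks only and 55 had peaks of the list without genotype only.

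Protein-coding gene bodies make up 42.1% of the length and showed the lowest ratio. They held the midpoint of 2082 peaks of the list without genotype (15.7%, interval 15.1 to 16.4) and of 7363 EV peaks (31.7%, interval 31.1 to 32.3), a ratio of 0.283. Among peaks with a −log10 q of at least 2 the shares were 7.87% and 29.1%, and at 5 they were 5.10% and 24.8%. The covered length in them was 2.07 Mb against 8.25 Mb, a ratio of 0.251. In the sequence that is neither in a protein-coding gene nor in a gene-free stretch the ratios were 0.440 for peaks and 0.398 for length. Counting only peaks outside gene-free stretches, 32.5% of those without genotype and 42.8% of the EV peaks lay in protein-coding genes. Of the peaks in these genes, 24.8% of the list without genotype and 6.71% of EV met a peak of the other list.

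Every one of the 22 chromosomes had fewer covered bases in the list without genotype, and 21 had fewer peaks. The ratio of covered length was lowest on chromosome 3 at 0.365 (0.618 Mb against 1.69 Mb) and highest on chromosome 21 at 0.906 (1.63 Mb against 1.80 Mb), and its median was 0.596. Outside gene-free stretches its lowest value was 0.183, on chromosome 17, its highest 0.919, on chromosome 21, and its median 0.326. The ratio was higher inside than outside those stretches on 21 chromosomes, with chromosome 21 as the exception. The share of peaks in protein-coding genes was lower in the list without genotype on all 22. Chromosome 19, which carries the largest zinc finger clusters, was the most covered in EV at 5.21% of its length, and held 2.46% in the list without genotype, where chromosome 21 led with 3.49%.

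**Figure D2:**
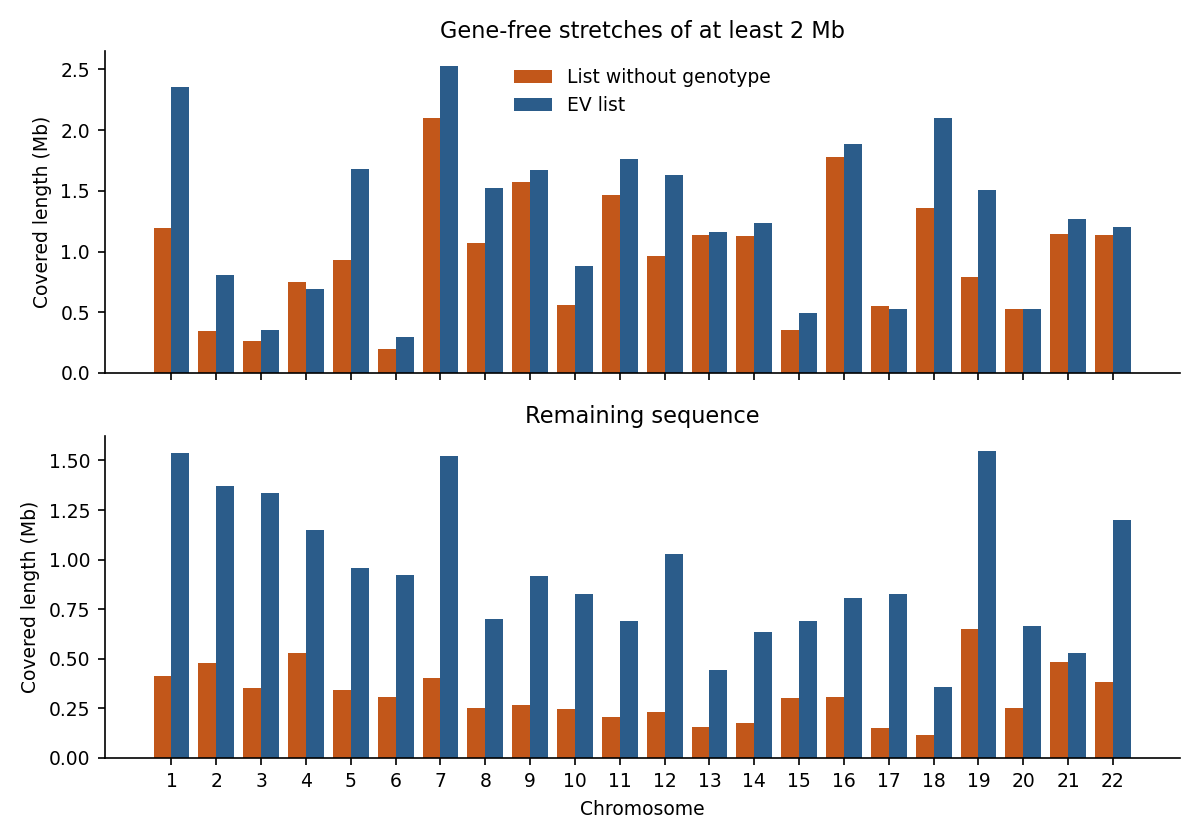
Covered length in Mb (y axis) on each of chromosomes 1 to 22 (x axis) in the list without genotype (orange) and the EV list (blue), in gene-free stretches of at least 2 Mb (top) and in the remaining sequence (bottom); each bar is 1 list, without replicates. In the bottom panel the ratio of orange to blue runs from 0.183 on chromosome 17 to 0.919 on chromosome 21.

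Agreement by chromosome was uneven as well. EV overlapped 28.3% of the peaks without genotype on chromosome 3 and 70.4% on chromosome 18. The list without genotype overlapped 12.6% of the EV peaks on chromosome 3 and 48.6% on chromosome 21. Shared bases made up 7.62% of the union on chromosome 6 and 61.6% on chromosome 16.

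The widest and strongest single peaks show both kinds of behaviour. The widest peak of the list without genotype, chr16:37565267-37709867 in a gene-free stretch (144601 bp), lay 97.8% under EV peaks. The widest EV peak, chr1:122238076-122448228 (210153 bp, gene-free), was met by 37 peaks of the list without genotype, which together covered 66.5% of it. The highest fold enrichment over background that the peak caller gave in the list without genotype was 20.8, at chr17:23619410-23621761 in gene-free sequence, wholly under an EV peak. Within genes of that list the highest-fold peak lay in SMOC2, which encodes a secreted matrix protein (chr6:168560707-168562380, fold 14.9), 99.5% of it under an EV peak.

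Some strong EV peaks had no partner. The highest EV fold, 20.4, was at chr21:10269953-10272439, 58.0 kb from the nearest peak of the list without genotype. An EV peak in STK4, a kinase gene of the Hippo pathway (chr20:45062733-45063958), had a −log10 p of 149 and lay 595 kb from the nearest peak of the other list. One in LDB2, a LIM-domain binding cofactor gene (chr4:16632983-16634976), had a fold of 15.3 and a distance of 124 kb. In all, 94 of 380 EV peaks that reached a −log10 p of 50 met no peak of the list without genotype. Every one of these 94 met a KD peak, as did all 286 that had a partner. The 94 had a median width of 1666.5 bp, and 34 of them lay in protein-coding genes. In the other direction, all 31 peaks without genotype that reached 50 met an EV peak. At a −log10 p of 30, 256 of 739 EV peaks met no peak of the list without genotype. Of the 54 peaks without genotype that reached 30, 1 met no EV peak, at chr21:8256582-8257024 in the ribosomal RNA pseudogene RNA5-8SP10.

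Among the gene classes of the annotation, ribosomal RNA genes had a larger covered share in the list without genotype, 70.8% against 14.4% of their summed length. The 45S precursor of the 18S, 5.8S and 28S ribosomal RNAs is made from tandem repeats on the short arms of the acrocentric chromosomes, many of them silent, and the gene table places 3 units on chromosome 21. RNA45SN1 (chr21:8433222-8446572) was covered over 79.1% in the list without genotype and 19.8% in EV. RNA45SN2 (chr21:8205988-8219302) was covered over 67.0% and 10.1%. RNA45SN3 (chr21:8389035-8402343) was covered over 61.9% and had no EV peak. All 12 gene entries in these units, which are nested, met a peak of the list without genotype and 5 met an EV peak, with 69.3% and 9.98% of their summed length covered. The 18S genes were covered over 95.6% to 100% in the list without genotype, and over 47.2%, 0% and 0% in EV. The 17 genes of 5S ribosomal RNA, a separate array on chromosome 1, were wholly covered in both lists. The units are near-identical copies that share reads, so a value of 1 copy is uncertain, and the sources used here do not say how input reads entered the calling.

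Before 13 Mb, a part that takes in both the 45S units and a gene-free stretch, chromosome 21 held 414 peaks of the list without genotype and 341 of EV, with 1.51 Mb and 1.58 Mb covered. After it there were 152 peaks against 204, and 0.120 Mb against 0.218 Mb. Between 8 and 9 Mb, where the 45S units lie, the covered length was 147 kb against 90.3 kb.

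Among 18973 protein-coding genes, 141 (0.743%) had at least 10% of the body under peaks of the list without genotype, and 499 (2.63%) under EV peaks, a ratio of 0.283 (interval 0.233 to 0.341). The lists had 99 such genes in common, 70.2% of the smaller set and 19.8% of the larger. Any overlap was seen in 1367 genes (7.2%) and 4645 genes (24.5%). The covered share was at least 10 percentage points higher in the list without genotype at 41 genes (0.216%) and in EV at 413 genes (2.18%). The gene lists that follow are read against these percentages, and all the bodies together were covered over 0.171% and 0.682%.

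Zinc finger genes, many of which encode KRAB repressors that direct H3K9me3 to transposons, were covered in both lists, more of them in EV. On chromosome 19, 23 of 246 ZNF genes (9.35%) passed 10% in the list without genotype and 60 (24.4%) in EV, and 125 and 155 had any overlap. Their median covered share was 0.89% and 4.21%, where the median over all protein-coding genes was 0 in each list. Their summed bodies were covered over 3.33% and 6.88%, a ratio of 0.484 against 0.251 over all protein-coding genes. On the other autosomes 14 and 26 of 252 passed (5.56% and 10.3%), with a covered ratio of 0.391. With EV cut to its 13242 strongest peaks, the order turned, with 23 against 19 on chromosome 19 and 14 against 12 elsewhere. Stricter settings took most of these genes out of the list without genotype: at a −log10 q of at least 2 the counts were 2 against 26 and 1 against 15, at 5 they were 0 against 5 and 0 against 3, and with 25% of the body required 2 against 15 and 1 against 10.

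The ZNF genes with peaks were only partly the same. On chromosome 19, 10 passed 10% in both lists, and 26.7% of the 251 peaks without genotype in ZNF genes met an EV peak. ZNF772 (chr19:57469586-57477566) was covered over 44.9% in the list without genotype and 17.3% in EV. Nearby ZNF416 (chr19:57571566-57578911) was covered over 39.5% and 18.2%, and ZNF256 (chr19:57940833-57947706) over 22.5% and 0%. ZNF134, ZNF350, ZNF441 and ZNF471 were covered over 14.95% to 16.8% in the list without genotype and had no EV peak. On chromosome 5, ZNF879 stood at 36.8% and 9.04%. The opposite order held at ZNF554 on chromosome 19, with 1.99% against 41.9%, at ZNF605 on chromosome 12, with 5.42% against 48.5%, and at ZNF678 on chromosome 1, with 8.03% against 44.5%. ZNF544, whose upstream sequence is printed above, stood at 18.3% and 31.4%.

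**Figure D3:**
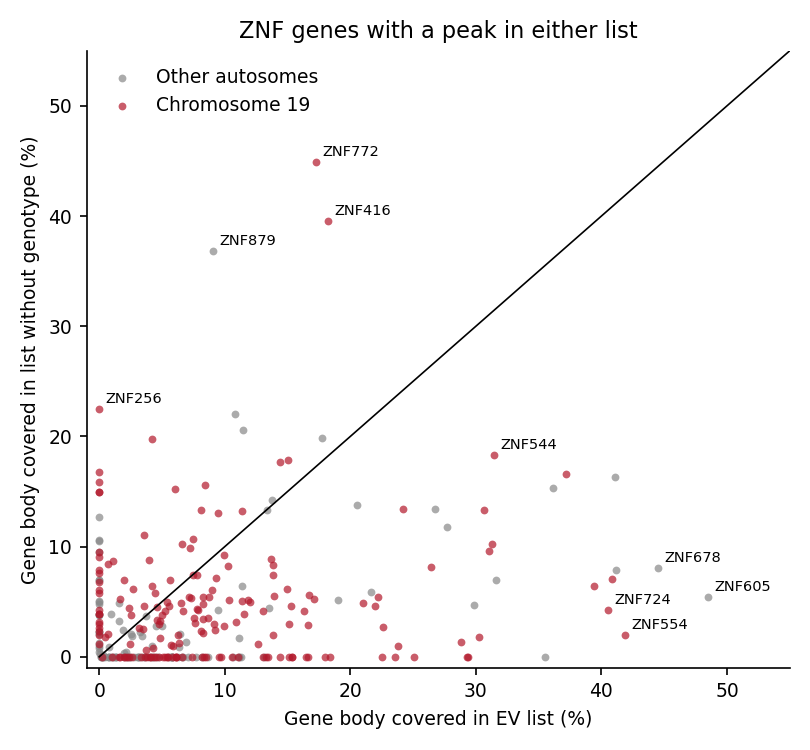
Percent of the gene body covered in the EV list (x axis) and in the list without genotype (y axis) for each autosomal ZNF gene with a peak in either list; red points are on chromosome 19, grey points on other autosomes, and the line marks equal shares. Points lie along both axes, with ZNF772 (44.9% against 17.3%) above the line and ZNF605 (5.42% against 48.5%) below it.

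Along ZNF genes of chromosome 19, divided into 10 equal segments from start to end (216 with a known strand), the mean covered share of the list without genotype was 2.26% in the first segment, 5.52% in the ninth and 4.90% in the last. In EV it was 5.12%, 9.10% and 6.94%. Both lists were thus denser towards the 3′ end than at the start.

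Of the 41 genes covered at least 10 percentage points more in the list without genotype, 13 were ZNF genes, as were 61 of the 413 genes higher in EV by as much, while ZNF genes make up 2.66% of all protein-coding genes. Near-identical copies of 2 families were also among the 41. These were 9 copies of FAM90A, covered over 17.0% to 97.8% against 0% to 34.4%, and 5 copies of TAF11L, covered over 47.9% to 100% against 0% to 89.3%. FAM90A and TAF11L copies were also among the genes higher in EV, 4 and 1 of them, and reads cannot be assigned with certainty between such copies. Genes of pluripotent or germ cells went both ways, with DPPA5 (13.8% against 0%) and TEX19 (27.98% against 8.28%) higher in the list without genotype and DPPA2 (0% against 23.7%) and DPPA4 (0% against 12.1%) higher in EV. SPATA31A7 is a member of a sperm-related family with several copies (chr9:61190036-61196280). Among genes of at least 5 kb that were higher in the list without genotype, it had the largest difference (32.2% against 0%). SPATA31A5 of the same family stood at 0% against 18.4%.

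Developmental transcription factor genes were covered mostly in EV. Of 186 homeobox and other developmental factor genes, 6 passed 10% in the list without genotype and 37 in EV, and all 6 passed in both. These are 3.23% and 19.9%, each above the 0.743% and 2.63% of all protein-coding genes. FOXB2, a forkhead factor gene, was covered over 93.5% in EV and not at all in the list without genotype. The homeobox genes HMX2 and TLX3 stood at 87.5% and 72.5% in EV, also with no peak in the other list. The exceptions with peaks in both included FOXI2 (31.5% and 50.2%), FOXD4 (25.7% and 19.1%) and FOXA2 (18.9% and 27.6%). Of 39 HOX genes none had a peak of the list without genotype and 5 had EV peaks, among them HOXD1 (32.4%), HOXD11 (21.7%) and HOXD9 (16.9%). Any overlap was thus at 0% and 12.8%, against 7.2% and 24.5% of all protein-coding genes. All 5 also passed 10% in EV, where 2.63% of all protein-coding genes did.

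Clustered protocadherins, neuronal adhesion genes in a tandem array on chromosome 5, passed 10% in 4 against 30 of 53 members (7.55% and 56.6%). Many of these bodies overlap one another, so 1 peak can count for several genes. Their median covered share was 0.19% and 12.8%, and their merged bodies were covered over 1.00% and 11.8%. PCDHB6 (26.03% in EV) and PCDHB5 (24.3%) had no peak of the list without genotype. PCDHB7 was covered about equally (21.9% and 21.4%), and PCDHB10 more in the list without genotype (35.4% and 14.3%).

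**Figure D4:**
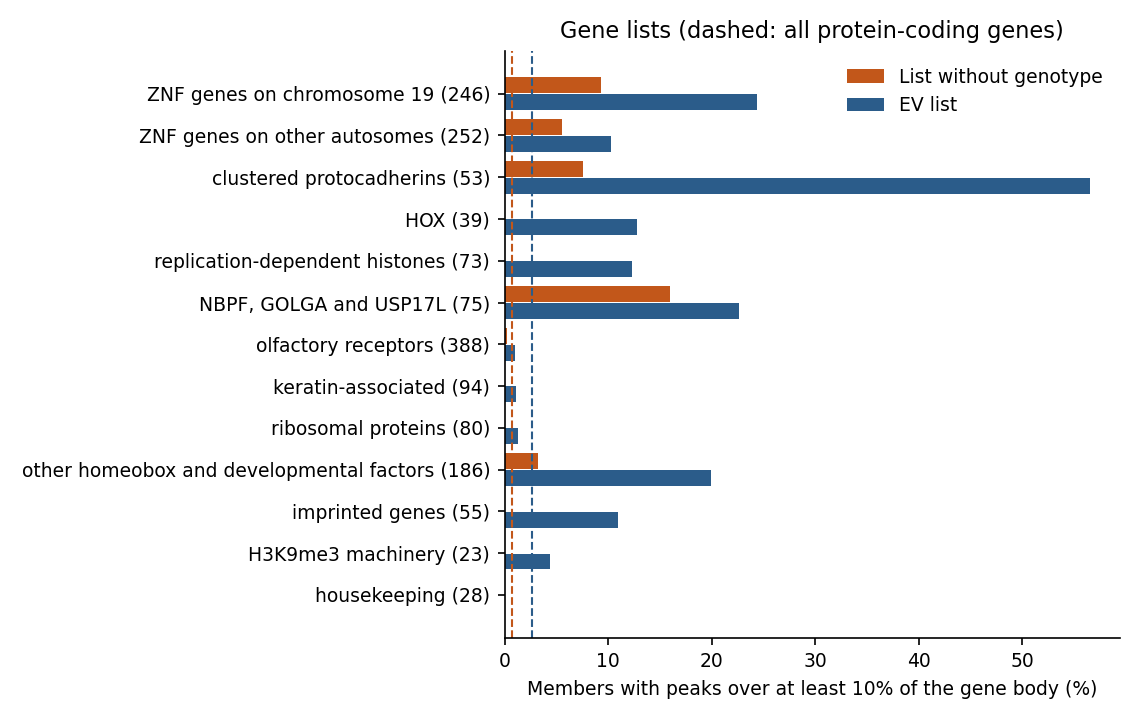
Percent of the members of each gene list (members in brackets) that have 10% or more of the body under peaks, in the list without genotype (orange) and in EV (blue); dashed lines mark the share of all protein-coding genes, 0.743% and 2.63%. Blue bars are the longer ones wherever a bar is drawn, and for both ZNF lists the order turns when EV is cut to its 13242 strongest peaks.

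Replication-dependent histone genes, short intronless genes in clusters, had 0 of 73 past 10% in the list without genotype and 9 in EV. These are 0% and 12.3%, against 0.743% and 2.63% of all protein-coding genes. Among the 9 were H2BC14 (100%) and H3C7 (95.5%). All 73 together held the midpoints of 5 EV peaks, so the 9 may not be separate cases, and bodies this short pass 10% with little overlap. Imprinted genes, expressed from 1 parental allele, had 0 and 6 of 55 (0% and 10.9%). NNAT stood at 63.7%, MAGEL2 at 36.5% and H19 at 22.5% in EV, and none of these was covered in the list without genotype. The imprinted gene PEG3 was covered over 7.50% and 9.29%. The copy families NBPF, GOLGA and USP17L had 12 and 17 of 75, and the 12 passed in both. Olfactory receptors had 1 and 4 of 388 (0.258% and 1.03%) and keratin-associated genes 0 and 1 of 94 (0% and 1.06%). Genes of ribosomal proteins had 0 and 1, out of 80 (0% and 1.25%). Olfactory, keratin-associated and ribosomal protein genes were thus below the 0.743% and 2.63% of all protein-coding genes. In gene lists of this size, a count of 0 cannot be told apart from a share of 0.743%. Among 23 genes of enzymes, readers and other factors linked to H3K9me3, 1 passed, in EV (0% and 4.35%). It was ZNF274, a repressor that binds ZNF genes (7.06% and 40.9%), which is also counted among the ZNF genes of chromosome 19. None of 28 housekeeping genes passed in either list.

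Some genes of at least 5 kb were covered to a like extent in both lists. EPPK1, which encodes the cytoskeletal linker epiplakin, stood at 37.5% in the list without genotype and 37.0% in EV. DUX4, the double homeobox gene of the subtelomeric repeat on chromosome 4 (chr4:190173774-190185911), stood at 32.1% and 31.0%, MUC5B, a secreted mucin gene, at 19.6% and 21.8%, and IRX1, an Iroquois homeobox gene, at 22.2% and 18.3%. TAFA5, a gene for a secreted signalling protein (chr22:48489553-48751932), carried 34 peaks without genotype and 44 EV peaks, which covered 57.6 kb and 146 kb of it. Other genes differed fully, among them SSTR1, a somatostatin receptor gene (0% and 49.3%), the transcription factor genes DMRTA2 (0% and 45.9%) and ISL2 (0% and 37.2%), and FLG, the filaggrin gene of the epidermis (0% and 43.8%). Its neighbour in the same gene family, HRNR, was covered in both lists (37.9% and 59.2%).

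At start sites the gap between the lists was wider than over gene bodies, although the sets of genes differ. Windows were at hand for 15101 of the 18973 protein-coding genes. No window under a peak of either list lay on chromosome 8, where EV had 805 peaks. Of the 21156 windows of 300 bases around starts of 15101 protein-coding genes, 60 (0.28%) met a peak of the list without genotype and 340 (1.61%) an EV peak, a ratio of 0.18, and 34 met both. The ratio was lowest in windows rich in CG. Of 8352 windows with 26 CG or more, 12 met a peak without genotype and 155 an EV peak (0.14% and 1.86%), a ratio of 0.08. Of 1564 windows with 11 to 15 CG, 21 and 45 did (1.34% and 2.88%), a ratio of 0.47. Most of the 21 were windows of TAF11L copies on chromosome 5 and of closely spaced LOC genes on chromosome 7. All of those also met EV peaks. Neighbouring copies are not separate cases, so the share and ratio of this bin rest largely on a few places. The same windows enter the medians that follow. The median window under a peak of the list without genotype held 14.5 CG, that under an EV peak 24 and the median of all windows 21. HHEX, printed above, is one of the CG-rich windows met by EV alone, and FANK1 one met by the list without genotype alone.

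**Figure D5:**
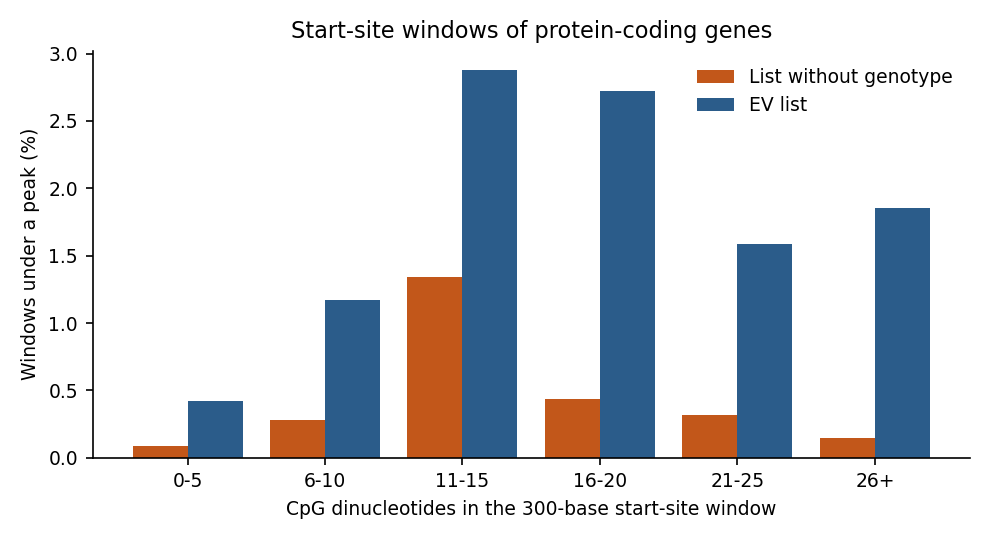
Percent of start-site windows under a peak (y axis) by the number of CG in the 300-base window (x axis), for the list without genotype (orange) and EV (blue); each bar is 1 list, without replicates. The orange bar peaks at 1.34% for 11 to 15 CG, mostly from TAF11L copies and closely spaced LOC genes. It stands at 0.14% for 26 or more, where the blue bar is at 1.86%.

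The imprinted KCNQ1 domain, which holds the gene of the long non-coding RNA that the study's KD group targets, held few peaks in either list. In chr11:2302013-3165310 the list without genotype had 2 peaks, chr11:2633639-2634649 and chr11:2637875-2638848, both in KCNQ1 and within KCNQ1OT1, which is transcribed antisense to it. EV had 1 peak there, chr11:2639061-2639569, which lay 0.21 kb from the second of these and overlapped neither. KCNQ1OT1 (chr11:2608328-2699994) was thus covered over 2.17% in the list without genotype and 0.56% in EV. The EV peaks outside KCNQ1 were chr11:2353058-2354450 in CD81-AS1 and chr11:2937965-2938786 nearest NAP1L4, where the list without genotype had none. None of the 16 domain genes reached 10% in either list. Any overlap was seen in 2 and 3 of them (12.5% and 18.75%), against 7.2% and 24.5% of all protein-coding genes. The 16 include long non-coding RNA genes, a class in which 4.54% and 11.1% had any overlap. Their merged bodies were covered over 0.261% in the list without genotype and 0.250% in EV. All protein-coding bodies were covered over 0.171% and 0.682%, and those of long non-coding RNA genes over 0.233% and 0.613%. The domain values rest on 2 peaks in each list, covering 1.985 kb and 1.902 kb, so no departure from these backgrounds is read from them. The −log10 p of the peaks in KCNQ1 was 4.09 and 3.40 in the list without genotype and 3.88 in EV, each below the median of its own list.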

How the data were processed

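Reads were aligned with Bowtie2 and peaks called with MACS2 on GRCh38, per the submitters' processing notes. Versions, calling options, controls and pooling: not given in the sources used here. Each deposited list holds broad peaks, without a header. Each peak's fold enrichment is the authors' ratio over the caller's background. The −log10 p and −log10 q were computed by the authors too, and the lists stop at a −log10 q of about 1. These values rank peaks within their own library. Where their medians, or counts at the same cutoff, are set side by side for both lists, a difference in depth can enter. No read counts are given, so depth is unknown.

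Overlap (at least 1 bp) and covered bases were computed with Python 3.11.15, numpy 2.4.6, pandas 2.3.3 and scipy 1.17.1, and plotted with matplotlib 3.10.9. The functions were tested on simulated data and checked against bedtools 2.31.1, which also gave reciprocal overlaps. A peak belongs to a gene or stretch by its midpoint. Genes came from a RefSeq table (GRCh38.p14), of which 718 entries with positions off the chromosome sequences were left out. The table gave no exons, so exon and intron context was not analysed here. Chromosome length is the last gene or peak end, with assembly gaps included. Start-site windows (250 bases before, 50 after) are RefSeq's.

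The comparison, the gene lists and the rules were chosen with earlier results of these data known. Named genes are protein-coding with a body of at least 5 kb: the 10 with the largest difference each way and the 10 with the largest smaller share. Added were up to 4 members of each list by difference and up to 3 by smaller share, KCNQ1 domain genes with a peak, and, per list, the 3 widest, the 3 highest-fold and the 5 strongest partnerless peaks. The text gives a selection. The genes whose sequence is printed, and DPPA2, DPPA4, TEX19, SPATA31A5, FAM90A and TAF11L, were chosen after their values were seen. Samples without a matched list (WT and both inputs) entered no comparison. Alternatives were stricter −log10 q, equal peak numbers, merging within 3 kb, other sets of sequence and stricter overlap.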

Additional observations from a re-analysis of the deposited data

Results flagged for a closer look

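Peaks outside chromosomes 1 to 22 entered none of the comparisons above. The list without genotype holds 1065 peaks on X, 55 on Y and 853 on other sequences, and EV holds 1264, 156 and 1699. X carried 7.44% of the peaks on chromosomes 1 to 22 and X in the list without genotype and 5.16% in EV. No control list was at hand to set a level for these sequences.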

How the results depend on the processing

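The list without genotype kept fewer covered bases than EV under each of the 6 settings for peaks and sequences that were tried. Most of the values that have an interval fell outside the interval of the main comparison. Covered length and shared union have no interval, so their shifts are not measured against counting error. At a −log10 q of at least 2 the ratio of peak numbers was 0.409, that of covered length 0.515 and that of genes covered over 10% 0.166. Of the peaks without genotype 70.6% then met EV, of EV 24.8% met them, 33.8% of the union was shared, and 7.87% of the peaks without genotype lay in protein-coding genes, against 29.1% in EV. At a −log10 q of at least 5 the values were 0.245 for peaks, 0.390 for length, 73.9% and 17.6% overlapped, 25.1% of the union and 5.10% in genes, against 24.8% in EV. With EV limited to its 13242 strongest peaks the peak ratio was 1.0 by construction, the length ratio 0.752, the overlapped shares 44.5% and 35.8%, the shared union 35.0% and the gene ratio 0.449. Merging peaks within 3 kb gave ratios of 0.489 and 0.626, shares of 46.8% and 19.3%, a shared union of 36.9% and 20.1% in genes. Leaving out gene-free stretches gave 0.373 and 0.339, 26% and 9.34%, 8.61% and 32.5%. With X and Y added the ratios were 0.582 and 0.590, the shares 50.2% and 24.7% and the shared union 30.03%. Requiring overlap of 50% of the peak gave 43.8% and 16.1%, and 50% of both peaks 18.7% and 10.6%. Requiring 25% of the gene body gave a gene ratio of 0.351, from 67 and 191 genes. The cause of these shifts was not tested. Of the 14 gene lists, both ZNF lists alone changed order, and only at equal peak numbers.

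No paired analysis was possible because there is 1 list a side, and there was no replicate to leave out. What depth limits is unknown, since no list gives its reads.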
